A study of Mus musculus with 10 samples.

Results

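Globin genes and other red cell genes were followed in whole mouse lens: Hbb-y, Hbb-bh1, Hbb-b2, Hba-x, Hba-a1, Alas2, Slc4a1, Ahsp and Epb42. Every probe set whose gene symbol was one of these 9 names was taken, which gave 20 of the 45101 probe sets of the array and covered 8 of the 9 genes; Ahsp was not analysed here. Of the 20 probe sets, 16 carried 1 gene symbol and 4 were shared by several genes. The probe set 1417184_s_at was shared by Hbb-bt, Hbb-bs, Hbb-b2 and Hbb-b1, and 1417714_x_at, 1428361_x_at and 1452757_s_at by Hba-a1 and Hba-a2, so their signals cannot be split between the copies. Lenses were wild type (WT) or conditionally null for Klf4 (Klf4CN in the labels), at embryonic day 16.5 (E16.5) or postnatal day 56 (PN56). Each E16.5 sample pooled the lenses of 5 embryos, with 3 WT and 3 Klf4CN samples. Each PN56 sample pooled those of 3 young adults, with 2 samples per genotype. One array was hybridised with the total RNA of each sample, 10 in all; the promoter driving the recombinase is not given in the sources used here, and neither is the strain.

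Globins are the protein chains of haemoglobin, the oxygen carrier of red cells. Mice switch from embryonic globins, made in the primitive red cells of the yolk sac, to adult globins, made in red cells of the fetal liver and later the bone marrow. Young circulating red cells still hold globin messenger RNA, so that RNA of any tissue with blood vessels or blood on it carries globin transcripts. The lens itself has no blood vessels, but the embryonic lens is wrapped in a transient vascular capsule that regresses after birth. Alas2 encodes the erythroid enzyme of the first step of haem synthesis, Slc4a1 band 3, the anion exchanger of the red cell membrane, Epb42 protein 4.2 of the membrane skeleton, and Ahsp a chaperone of free alpha-globin.

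The stretch upstream of the start site is shown for 5 genes whose probe sets carry results below and whose sequence was available. These are an embryonic and an adult gene of the beta cluster, an embryonic and an adult gene of the alpha cluster, and Alas2. For Hbb-bh1, Hbb-b2 and Slc4a1, which also carry results, no sequence was matched in the source used. Sequences are RefSeq's, of build GRCm38.p6, and run over the 250 bases before the start site, 5′ to 3′ on the strand of the gene. Hbb-y lies at chr7:103853208-103853457 (reverse strand), Hbb-bs at chr7:103827929-103828178 (reverse strand), Hba-x at chr11:32276350-32276599 (forward strand), Hba-a1 at chr11:32283422-32283671 (forward strand) and Alas2 at chrX:150547167-150547416 (forward strand). Capitals mark matches, on either strand, to 4 motifs. These are the GATA motif AGATAA, in which the first base may also be T and the last may also be G, the CACCC motif, the CCAAT box and the TATA motif, searched as TATAA.
Hbb-y: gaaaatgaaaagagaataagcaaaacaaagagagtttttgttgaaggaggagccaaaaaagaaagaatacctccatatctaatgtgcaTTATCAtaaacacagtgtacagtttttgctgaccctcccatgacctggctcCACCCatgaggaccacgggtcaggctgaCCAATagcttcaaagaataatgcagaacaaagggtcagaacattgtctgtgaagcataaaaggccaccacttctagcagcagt
Hbb-bs: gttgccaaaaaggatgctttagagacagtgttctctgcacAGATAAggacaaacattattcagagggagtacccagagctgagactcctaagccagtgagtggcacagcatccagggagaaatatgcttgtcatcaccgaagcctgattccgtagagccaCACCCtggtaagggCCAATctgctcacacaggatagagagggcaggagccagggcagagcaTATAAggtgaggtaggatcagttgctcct
Hba-x: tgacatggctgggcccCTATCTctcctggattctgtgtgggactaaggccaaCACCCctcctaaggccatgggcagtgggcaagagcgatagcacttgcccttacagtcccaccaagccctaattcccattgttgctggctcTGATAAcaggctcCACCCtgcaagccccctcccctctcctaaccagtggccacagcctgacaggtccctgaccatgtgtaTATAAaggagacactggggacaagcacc
Hba-a1: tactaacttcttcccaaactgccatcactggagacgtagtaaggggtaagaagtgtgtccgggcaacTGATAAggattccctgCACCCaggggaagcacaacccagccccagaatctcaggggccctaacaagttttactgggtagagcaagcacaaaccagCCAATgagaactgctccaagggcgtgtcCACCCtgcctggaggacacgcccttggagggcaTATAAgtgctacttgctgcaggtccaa
Alas2: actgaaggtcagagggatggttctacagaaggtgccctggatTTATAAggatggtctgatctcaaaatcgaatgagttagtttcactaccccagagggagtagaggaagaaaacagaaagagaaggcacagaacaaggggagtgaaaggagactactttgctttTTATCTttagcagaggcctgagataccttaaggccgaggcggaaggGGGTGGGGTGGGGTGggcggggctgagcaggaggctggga

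A GATA motif, the letters bound by GATA factors such as GATA1, was present in all 5 windows, against 26.5% of the windows of 32851 promoters. CACCC, the letters bound by the Krüppel-like factor family to which both Klf4 and the erythroid Klf1 belong, was present in all 5, against 52.0% of all promoters. The shown set is not all members: Hbb-bs, a gene of the shared beta-globin probe set, is no member by symbol, and the window of Epb42, a member whose probe sets were too dim to test, held 1 GATA and 1 TATAA match, no match to CACCC, and none to the CCAAT box. CCAAT was found in Hbb-y, Hbb-bs and Hba-a1, against 33.8%, and TATAA in all but Hbb-y, against 22.8%. In Hba-x, 2 GATA and 2 CACCC matches were found, and in Alas2 3 adjacent CACCC matches, read as GGGTG on the strand shown, and 2 TATAA matches that overlap on opposite strands. The windows of Hba-a1 and Hba-a2 were identical over 247 of 247 bases compared, after a shift of 3 bases. These matches describe the letters only; binding was not measured.

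The deposited signals had been scaled array by array, with a trimmed mean of 500 on each of the 10 arrays, and median signals were 63 to 76.9 at E16.5 and 91 to 108.6 at PN56. The targeted gene was not lower in the lenses labelled Klf4CN, and by the test described below it was higher at PN56 on 1417394_at. The probe set 1417394_at of Klf4 gave 739 ± 295 in WT and 1079 ± 278 in Klf4CN embryos (SD, n = 3 each), and 185 ± 40.3 and 717 ± 20.9 in adults (SD, n = 2 each). Its log2 difference was 0.59 at E16.5, which did not pass, and 1.88 at PN56 (limma adjusted p = 0.00529). The other probe set, 1417395_at, had means of 346.7 in WT and 538.2 in Klf4CN embryos, and 158 and 339 in adults. Its differences of 0.65 and 1.04 did not pass (adjusted p = 0.0763 at PN56). Whether either probe set falls within the deletion is not given in the sources used here, and one outside it would check nothing. Every direction below is that of the lenses labelled Klf4CN. The tissue label was checked on 12 lens markers (crystallins, Mip, Lim2, beaded filament proteins and others), whose summed signal was 258923 to 332004 at E16.5 and 711197 to 1058930 at PN56. A spiked-in poly-A control, AFFX-DapX-3_at, was at 3125 to 4159 on embryonic arrays and 6.5 to 14.5 on adult ones. Effects of age and of array preparation therefore cannot be told apart.

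Tests were run with limma on log2(signal + 16), each probe set by itself, on the 27062 probe sets whose mean signal over the arrays was at or above the 40th percentile (54.06). A probe set was called at an adjusted p under 0.05, and a difference is a log2 difference of signal + 16, which understates the change of dim probe sets. Of the 20 probe sets, 14 were tested. The 6 others were too dim: 2 of the 3 of Hbb-bh1, both of Epb42, 1453574_at of Hba-a1 and 1431743_a_at of Slc4a1. A probe set can pass through E16.5 alone, where most of these genes were bright, so the 14 do not stand for all 20.

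**Figure D1:**
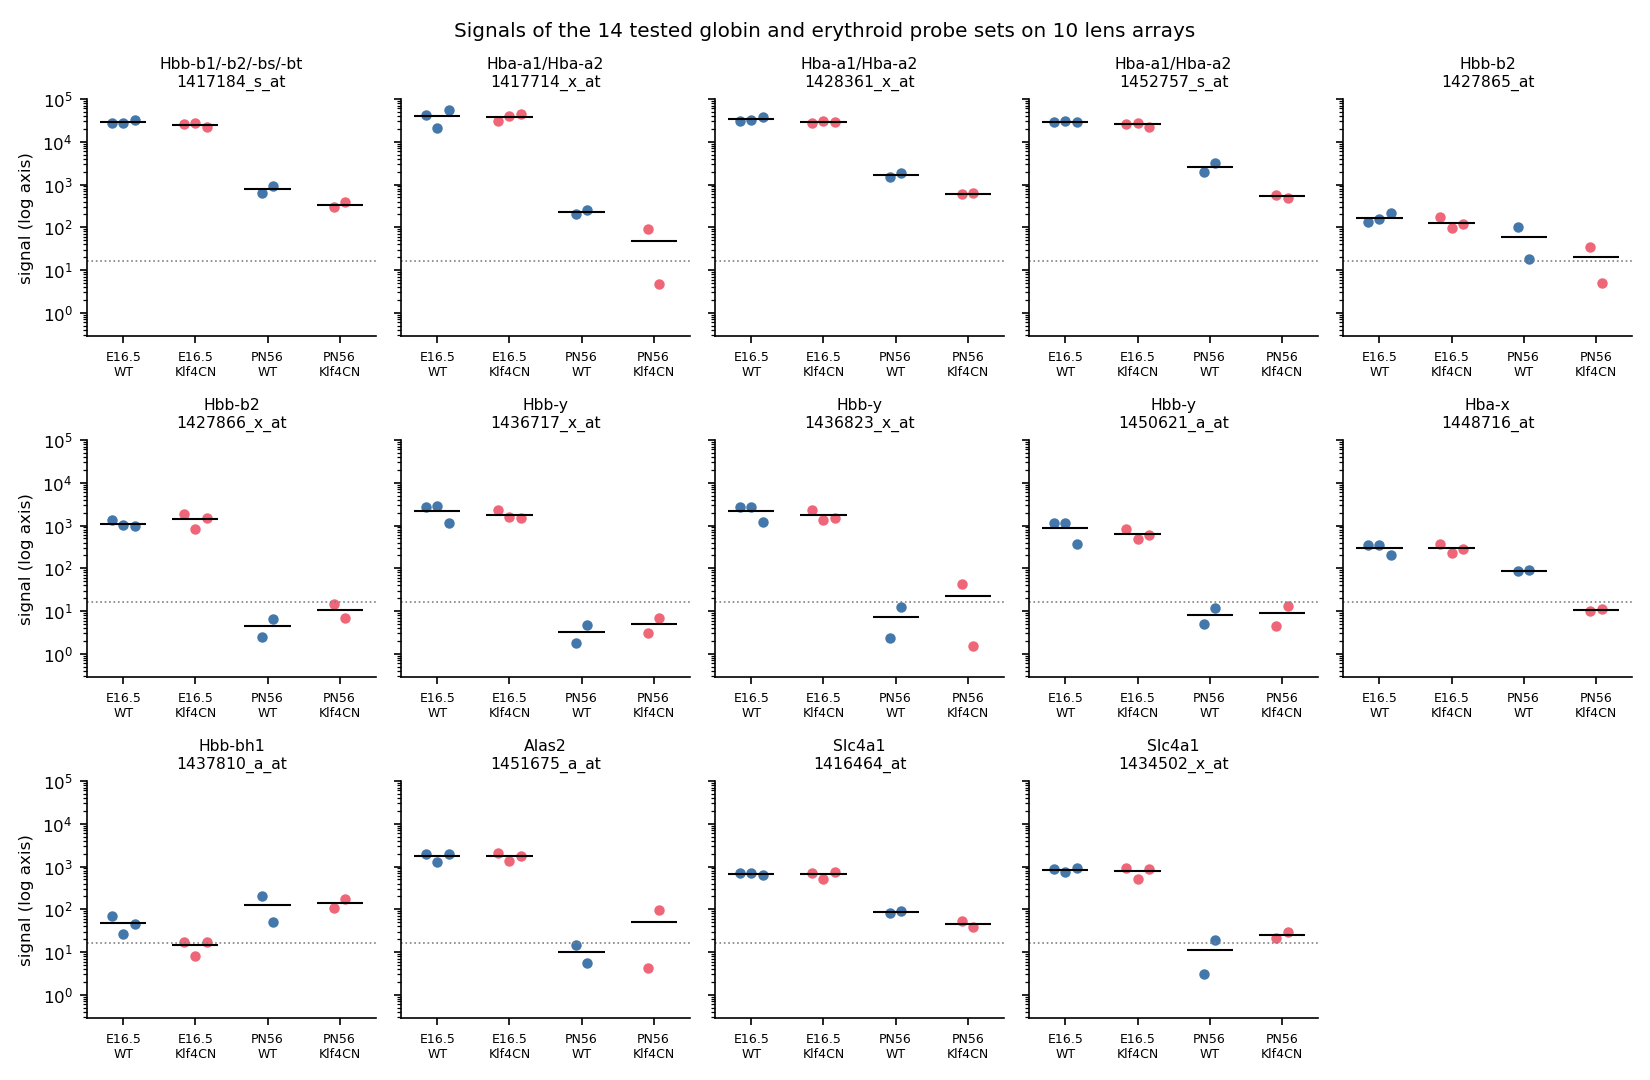
Signal (log axis) of each of the 14 tested probe sets on the 10 arrays, by group; points are arrays, black bars are group means and the dotted line is the offset of 16. Within each genotype, both PN56 arrays lie below all 3 E16.5 arrays in 13 panels, and Hbb-bh1 is the exception.

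Adult globin signals were high in the embryonic lens and far lower in the adult lens. The shared beta-globin probe set 1417184_s_at had signals of 27918, 27910 and 31406 on the WT arrays at E16.5 and 638 and 934.7 at PN56. In Klf4CN lenses it had 25294, 27089 and 22275 at E16.5 and 296 and 381.6 at PN56. The ages were far apart in both genotypes, with log2 differences of -5.20 in WT (limma adjusted p = 4.72e-10) and -6.14 in Klf4CN (adjusted p = 1.82e-10). In RNA of a whole tissue, fewer cells of a type and less RNA per cell cannot be told apart.

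The alpha-globin chains pair with the beta chains in the haemoglobin tetramer. Their shared probe set 1428361_x_at had signals of 30834, 32097 and 37750 in WT and 28087, 31360 and 29612 in Klf4CN at E16.5. At PN56 it had 1484 and 1889 in WT and 606.9 and 622.2 in Klf4CN. The age groups did not overlap, and the log2 difference was -4.31 in WT (adjusted p = 3.02e-10) and -5.56 in Klf4CN (adjusted p = 7.23e-11). A second shared probe set, 1452757_s_at, had 28840, 30458 and 29593 in WT and 26336, 28062 and 22289 in Klf4CN at E16.5. At PN56 it had 1976 and 3138 in WT and 580.6 and 474.5 in Klf4CN. It differed by age by -3.56 in WT (adjusted p = 1.03e-08) and -5.56 in Klf4CN (adjusted p = 5.52e-10). The third, 1417714_x_at, was the most variable at E16.5, with 42567, 21223 and 56130 in WT and 29966, 40263 and 45056 in Klf4CN, and had 200.7 and 260.3 in WT and 92.3 and 4.7 in Klf4CN at PN56. Its age differences were -7.24 in WT (adjusted p = 4.11e-07) and -9.65 in Klf4CN (adjusted p = 4.7e-08), the widest of the 14 tested probe sets in each genotype. The highest signal of any probe set on an E16.5 array was 45760 to 56130, and on WT replicate 3 that probe set was 1417714_x_at itself.

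Hbb-b2, the adult minor beta-globin, had a pair of probe sets of its own. The signals of 1427866_x_at were 1370, 1002 and 967.4 in WT and 1846, 825.3 and 1526 in Klf4CN at E16.5, and 2.5 to 14.3 on the 4 PN56 arrays. The fall was -5.77 in WT (adjusted p = 4.02e-08) and -5.67 in Klf4CN (adjusted p = 5.87e-08). The dimmer 1427865_at lay between 98.3 and 215.1 at E16.5 and between 5.1 and 99.5 at PN56. Its fall of -1.53 in WT passed the test (adjusted p = 0.0321) but was -0.66 without PN56 WT replicate 2 (adjusted p = 0.336), and was also lost without E16.5 WT replicate 2 (adjusted p = 0.0628) or replicate 3 (adjusted p = 0.0943). In Klf4CN it was -2.11 (adjusted p = 0.00635), and -1.48 without PN56 Klf4CN replicate 2 (adjusted p = 0.0805).

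Of the embryonic globins, Hbb-y and Hba-x fell with age in both genotypes, and the 1 tested probe set of Hbb-bh1, dim at E16.5, did not. Hbb-y, the embryonic epsilon-y beta-globin, had signals of 2664, 2866 and 1158 in WT and 2317, 1601 and 1499 in Klf4CN at E16.5 with probe set 1436717_x_at, and 1.8 to 6.9 at PN56. The 1436823_x_at probe set had 2673, 2715 and 1194 in WT and 2272, 1363 and 1521 in Klf4CN at E16.5, and 1.5 to 43.6 at PN56. The third, 1450621_a_at, had 377.6 to 1152 at E16.5 and 4.4 to 13.4 at PN56. All 3 fell with age in both genotypes, by -6.77, -6.50 and -5.07 in WT (adjusted p = 1.99e-08, 3.89e-07 and 1.67e-06) and by -6.42, -5.71 and -4.72 in Klf4CN (adjusted p = 3.71e-08, 1.27e-06 and 3.42e-06).

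Hba-x, the embryonic zeta-globin of the alpha cluster, had signals of 355.7, 341.6 and 205.5 in WT and 378.9, 225.9 and 282.1 in Klf4CN at E16.5. At PN56 it had 87 and 89.1 in WT and 9.8 and 11.1 in Klf4CN. Its fall with age was -1.57 in WT (adjusted p = 0.00148) and -3.53 in Klf4CN (adjusted p = 2.68e-06). Across the 6 embryonic samples, Hba-x and all 3 Hbb-y probe sets parted the arrays in the same way: WT replicates 1 and 2 and Klf4CN replicate 1 lay above WT replicate 3 and Klf4CN replicates 2 and 3. The adult alpha-globin probe set 1428361_x_at did not part them so, and was highest on WT replicate 3. This order was seen in the values and not tested.

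Hbb-bh1, the other embryonic beta-like globin, went the other way with its 1 tested probe set, 1437810_a_at. Its signals were 68.8, 26.9 and 46.4 in WT and 17.5, 8.3 and 17 in Klf4CN at E16.5, and 201.3 and 49.5 in WT and 108.1 and 177.9 in Klf4CN at PN56. The rise was 2.37 in Klf4CN (adjusted p = 0.00361), while the difference of 0.97 in WT was not past the test (adjusted p = 0.162). Over the alternatives the WT difference ran from 0.10 to 1.83. At E16.5 this probe set lay near or under the array medians of 63 to 76.9, so the rise starts near the floor. The 2 dimmer probe sets of Hbb-bh1 had group means of 14.2 to 42.5 at E16.5 and 8.95 to 42.2 at PN56, with overlapping ages, and so do not show this rise. Hba-a2, a near-identical copy of Hba-a1, also rose on the probe set that is its own, 1427219_at, from 2.4 to 21 at E16.5 to 102.1 to 228.3 at PN56, by 3.03 in WT (adjusted p = 0.000283) and 2.70 in Klf4CN (adjusted p = 0.000718). The probe set that belongs to Hba-a1 alone, 1453574_at, was also higher in the adult, at 5.8 to 8.1 at E16.5 and 30.3 and 45.2 at PN56 in WT, and at 2 to 9.2 and 25 and 90.1 in Klf4CN. It was too dim for the test; with no filter on dim probe sets its rise was 1.23 in WT (adjusted p = 0.0450) and 1.57 in Klf4CN (adjusted p = 0.0155). Both oppose the 3 probe sets shared by Hba-a1 and Hba-a2, so probe sets of the same genes disagree here. At E16.5 both lay under the array medians, on arrays where the shared probe sets read 21223 to 56130. At PN56 1453574_at also lay under the array medians of 91 to 108.6, while 1427219_at lay above them. These rises start from the floor, so they do not show that alpha-globin RNA rose with age.

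Alas2 and 2 of the 3 probe sets of Slc4a1 were far lower in the adult lens too. Alas2 had signals of 1910, 1283 and 1953 in WT and 2038, 1375 and 1800 in Klf4CN at E16.5. At PN56 it had 14.8 and 5.7 in WT and 4.2 and 95.6 in Klf4CN. The fall was -6.04 in WT (adjusted p = 1.42e-06) and -5.19 in Klf4CN (adjusted p = 5.71e-06). Slc4a1 had 714.2, 689.9 and 642.4 in WT and 711.4, 515.5 and 731.2 in Klf4CN at E16.5 with probe set 1416464_at, and 81.1 and 92.7 in WT and 53 and 39.4 in Klf4CN at PN56. The age difference was -2.76 in WT (adjusted p = 7.51e-07) and -3.42 in Klf4CN (adjusted p = 1.58e-07). For the 1434502_x_at probe set of Slc4a1 it was -5.06 (adjusted p = 1.05e-07) and -4.23 (adjusted p = 5.58e-07), from 522.6 to 924.5 at E16.5 to 3 to 28.8 at PN56. The third, 1431743_a_at, was too dim for the test and went the other way in WT, from 7.5 to 17.4 at E16.5 to 46.6 and 68.7 at PN56; with no filter this was a rise of 1.31 (adjusted p = 0.0402). In Klf4CN its ages overlapped, at 2.4 to 30.9 and 14 and 15. Epb42 stayed dim throughout, at 2.3 to 50.7 with 1417337_at and 3.1 to 22.8 with 1417338_at over all 10 arrays, and was not tested.

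Counted together, 13 of the 14 tested probe sets fell with age in WT and 1, Hbb-bh1, did not pass, against 24.7% of all 27062 probe sets called lower. In Klf4CN 13 fell, against 24.4% called lower, and Hbb-bh1 rose, against 23.3% called higher. With no filter, all 20 probe sets were tested: 12 fell and 2 rose in WT, against 14.4% and 19.2% of the 45101 probe sets, and 13 fell and 2 rose in Klf4CN, against 14% and 15.3%. The fall of 1427865_at of Hbb-b2 in WT was then lost (adjusted p = 0.0515). The median difference of all tested probe sets was 0.10 in WT and 0.05 in Klf4CN; with each array centred on its median it was -0.42 and -0.30, and 13 still fell in each genotype.

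**Figure D2:**
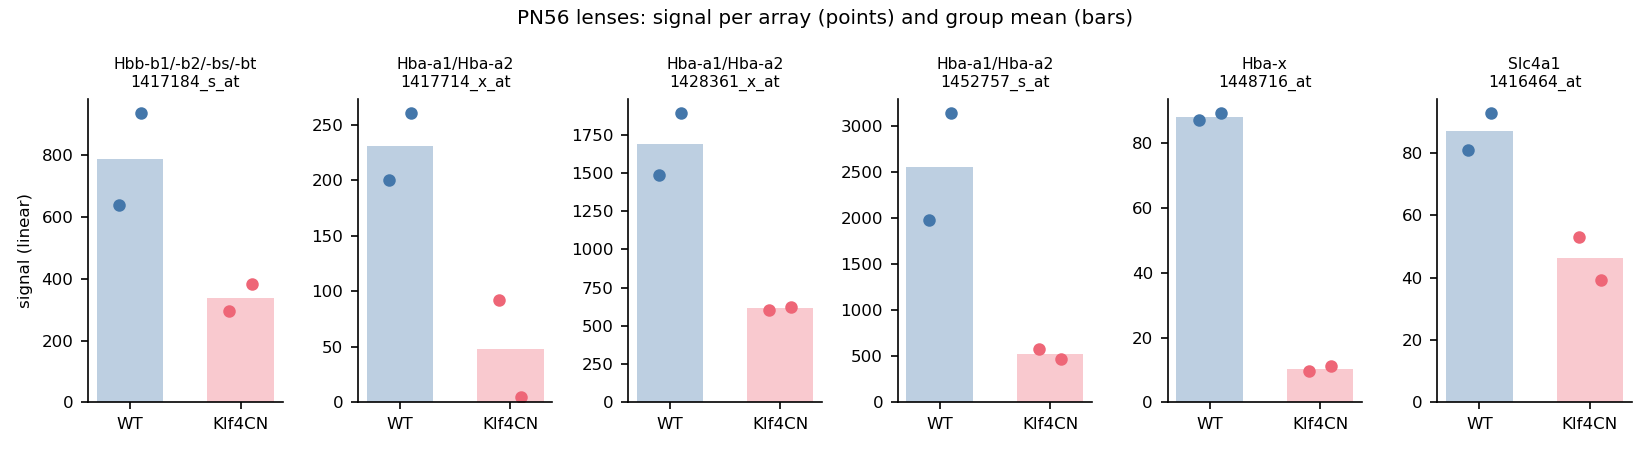
Signal (linear axis) on the 4 PN56 arrays for 6 probe sets; points are arrays and bars are means of the 2 arrays of each genotype. In every panel both Klf4CN points lie below both WT points; the Slc4a1 difference did not pass the test.

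In the adult lens, the shared adult globin probe sets and Hba-x were lower in the lenses labelled Klf4CN. The shared beta-globin signal was 786.4 ± 210 in WT and 338.8 ± 60.5 in Klf4CN (SD, n = 2 each), a log2 difference of -1.16 ± 0.17 (SE; adjusted p = 0.00193). Alpha-globin was lower on all 3 shared probe sets. Signals were 1686 ± 286 and 614.6 ± 10.8 for 1428361_x_at, a difference of -1.42 ± 0.13 (adjusted p = 9.87e-05), and 2556 ± 822 and 527.6 ± 75.0 for 1452757_s_at, a difference of -2.21 ± 0.19 (adjusted p = 4.4e-05). Hba-x was at 88.1 ± 1.49 and 10.5 ± 0.919, a difference of -1.98 ± 0.35 (adjusted p = 0.0052), with both Klf4CN signals under the offset of 16. Its WT signals of 87 and 89.1 were also under the medians of their arrays, 104.8 and 108.6. In neither genotype did Hba-x thus stand above the median signal at PN56.

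The third alpha-globin probe set, 1417714_x_at, differed by -2.37 ± 0.59 (adjusted p = 0.0253), a call that rested on single arrays. It was -1.18 without PN56 Klf4CN replicate 2 (adjusted p = 0.150), and was lost without PN56 WT replicate 1 (0.0746) or replicate 2 (0.0981). It was also lost with no intensity trend (0.0949), with array weights (0.0778) and in a fit on the 4 PN56 arrays alone (0.127). The last also ended the call of Hba-x (adjusted p = 0.194). The calls of 1417184_s_at, 1428361_x_at and 1452757_s_at held in every alternative in which they were tested.

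In all, 5 of the 14 tested probe sets were called lower in Klf4CN at PN56, against 5.04% of all probe sets, and 0 of 14 higher. The 5 probe sets stand for fewer genes, since 3 measure the same alpha-globin pair. The genotypes did not overlap, on the lower side, for 6 of 14, against 27.3% of all probe sets; the sixth was 1416464_at of Slc4a1, with a difference of -0.73 (95% interval -1.26 to -0.20; adjusted p = 0.0775). On the higher side 2 of 14 did not overlap, against 21.8%, which were 1427866_x_at of Hbb-b2 at 0.37 and 1434502_x_at of Slc4a1 at 0.66, neither past the test. The Slc4a1 probe sets thus had opposite signs, with signals of 3 to 28.8 on the second.

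The other probe sets did not pass at PN56. Those of Hbb-y were at 0.12, 0.50 and 0.03, with 95% intervals of -0.71 to 0.96, -0.65 to 1.64 and -1.04 to 1.09, all at signals of 1.5 to 43.6. The Hbb-bh1 difference was 0.38 (interval -0.94 to 1.70) and that of 1427865_at of Hbb-b2 -0.95 (interval -2.23 to 0.34). Alas2 was at 0.88 (interval -0.36 to 2.12), a value set by single arrays: without Klf4CN replicate 1 it was 2.11 (adjusted p = 0.00366), and without Klf4CN replicate 2, the array with a signal of 95.6, it was -0.36.

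**Figure D3:**
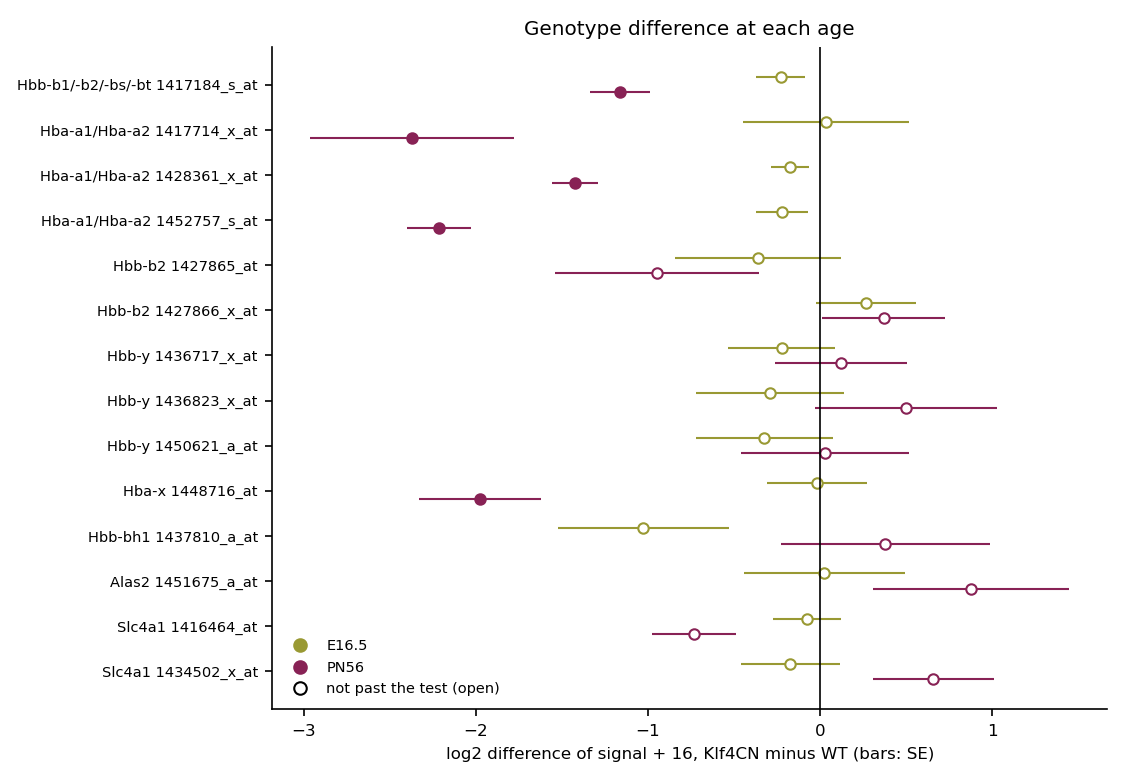
Log2 difference of signal + 16, Klf4CN minus WT, at E16.5 and at PN56 for the 14 tested probe sets; bars are standard errors, filled points passed the test and open points did not. All points at E16.5 are open, and the 5 filled points at PN56 lie between -2.37 and -1.16.

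At E16.5 no member differed between genotypes past the test. Of the 14, 0 were called by limma, and over all 27062 probe sets 1 was called, on the higher side (0.0037%). At an unadjusted p under 0.05 there were 0 of 14 and 1100 of 27062. The genotypes did not overlap, with Klf4CN lower, for 3 of 14 probe sets, against 6.1% of all. These were the shared beta-globin probe set at -0.23, 1452757_s_at of alpha-globin at -0.22 and Hbb-bh1 at -1.03. The intervals show what sizes of signal difference the arrays leave possible. They were -0.54 to 0.08 for shared beta-globin and -0.65 to 0.61 for Hba-x. For the alpha-globin probe sets 1428361_x_at, 1452757_s_at and 1417714_x_at they were -0.41 to 0.06, -0.55 to 0.11 and -1.02 to 1.08. For Hbb-y they ran from -1.23 to 0.64 at the widest, for Alas2 from -0.99 to 1.04, and for the 1416464_at probe set of Slc4a1 from -0.51 to 0.35. The shared globin probe sets had signals of 21223 to 56130 at E16.5, on arrays whose highest signals were 45760 to 56130. Whether differences are compressed at such signals was not tested, so these intervals need not bound the difference in RNA.

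The genotype effect was tested for a difference between the ages. It was more negative at PN56 for 4 of 14 probe sets, against 1.3% of all probe sets called lower. These were 1452757_s_at of alpha-globin, by -1.99 (adjusted p = 0.00149), 1428361_x_at of alpha-globin, by -1.25 (adjusted p = 0.00353), Hba-x, by -1.96 (adjusted p = 0.0396), and shared beta-globin, by -0.94 (adjusted p = 0.0444). The call of 1452757_s_at held in all 19 alternatives run for it, and that of 1428361_x_at in 18 of 19 (adjusted p = 0.0522 with no intensity trend). The other 2 calls lay near the threshold and were lost in 16 of 20 alternatives for Hba-x and in 13 of 20 for shared beta-globin, among them leaving out any 1 of the 6 E16.5 arrays. The 1417714_x_at value of -2.40 did not pass (adjusted p = 0.115). For the shared globin probe sets, the E16.5 side of this contrast rests on signals near the top of the arrays. The part of any compression there in these values was not tested.

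Other genes listed for red cells or haem did not move as one group. Of all 27062 probe sets, 10.1% were called between genotypes at PN56, 5.04% on the lower side. By age, 51.4% were called in WT, 24.7% lower, and 47.7% in Klf4CN, 24.4% lower. Counts of each list below are to be read against these shares. Of 13 tested haem synthesis genes other than Alas2, 2 were lower in Klf4CN at PN56, with a median of -0.31 against -0.04 over all probe sets. Alad, which joins 2 molecules of aminolevulinate, had a mean signal of 11890 in WT and 4962 in Klf4CN, a difference of -1.26 ± 0.14 (adjusted p = 0.000369), and Urod was at -0.55 (adjusted p = 0.0224). With age, 4 of the 13 rose and 4 fell in each genotype, near the shares of all probe sets. Slc25a37, mitoferrin-1, the mitochondrial iron importer of red cell precursors, fell from 2617 to 284.4 in WT, by -3.16 (adjusted p = 6.71e-07), while Alad rose by 2.59 (adjusted p = 1.67e-08).

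Of 12 erythroid transcription factors, Gata1, Klf1, Nfe2 and Gfi1b had no tested probe set. Of the 8 tested, 6 fell with age in both genotypes (medians -1.71 and -1.54), against 24.7% and 24.4% of all probe sets. Lmo2, a bridging protein of the GATA1 and TAL1 complex that endothelial cells also make, fell by -2.98 in WT (adjusted p = 0.000124), and Zfpm1, the GATA1 cofactor FOG1, by -1.75 (adjusted p = 6.91e-06). None of the 8 was called between genotypes at either age (medians 0.20 at E16.5 and -0.01 at PN56).

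Of 11 tested genes of the red cell membrane and surface, 3 were lower in Klf4CN at PN56 (median -0.22), against 5.04% of all probe sets. Ermap, an erythroid membrane protein, was at 948.4 in WT and 241.6 in Klf4CN, a difference of -1.96 (adjusted p = 0.0022). Aqp1, a water channel also of other tissues, was at -1.001 (adjusted p = 0.00647; 0.0526 without PN56 Klf4CN replicate 2), and Slc2a1, the glucose transporter GLUT1, at -0.73 (adjusted p = 0.00158). Gypc, glycophorin C, fell with age by -2.18 in WT (adjusted p = 2.11e-06), while Aqp1 rose by 4.19 (adjusted p = 3.26e-09).

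Of 12 genes of erythroid receptors, iron uptake and red cell metabolism, 2 were higher and 1 lower in Klf4CN at PN56 (median 0.10). Car2, carbonic anhydrase 2, was higher, with mean signals of 4604 in WT and 11190 in Klf4CN, by 1.28 (adjusted p = 0.000334). Tfrc, the transferrin receptor, was higher by 0.60 (adjusted p = 0.0121), and Cat, catalase, was at -0.65 (adjusted p = 0.0172). Of 9 genes that clear haem and haemoglobin, 2 were higher (median 0.35): Blvrb, biliverdin reductase B, with signals of 15.2 in WT and 238.6 in Klf4CN, by 3.02 (adjusted p = 6.01e-05), and Blvra by 0.45 (adjusted p = 0.0343). Called genes of these groups thus went in both directions at PN56, and at E16.5 none of the 53 genes tested in the 5 groups was called between genotypes. Alad, Aqp1 and Car2 rose with age in WT, by 2.59, 4.19 and 2.04, where the shared globins fell. Signals of these lists need not come from red cells, and their source was not tested. The PN56 calls of Urod, Cat, Tfrc and Blvra were lost in 6, 6, 5 and 9 of 21 alternatives. Among these were leaving out WT replicate 1 or Klf4CN replicate 2 of PN56 for Urod, WT replicate 1 or Klf4CN replicate 1 for Cat, WT replicate 2 or Klf4CN replicate 1 for Tfrc, and any 1 of the 4 PN56 arrays for Blvra, with adjusted p-values of up to 0.180, 0.0895, 0.0695 and 0.144 over their alternatives.

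**Figure D4:**
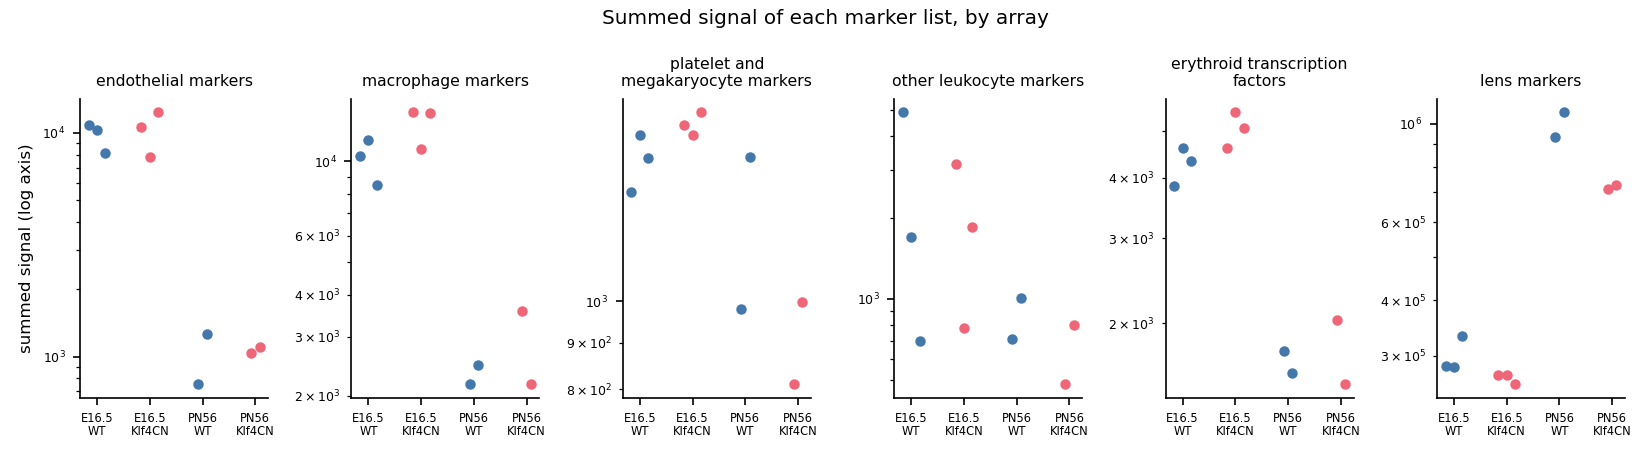
Summed signal (log axis) of the genes of 6 marker lists on each of the 10 arrays, by group. Endothelial and macrophage sums are lower on every PN56 array than on every E16.5 array, while lens marker sums are higher.

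Markers of vessels fell with age beside the globins. All 12 endothelial markers were called lower at PN56 in both genotypes (medians -3.24 in WT and -3.15 in Klf4CN), against 24.7% and 24.4% of all probe sets. Their summed signal was 7782 to 12338 at E16.5 and 752 to 1257 at PN56. Of 12 macrophage markers, 11 were lower in each genotype, with sums of 8516 to 13970 and 2161 to 3568. Of 5 tested platelet markers, 1 fell and 2 rose in WT, and 2 fell and 1 rose in Klf4CN. Of 6 other leukocyte markers, 2 fell and 0 rose in WT, and 3 fell and 1 rose in Klf4CN. The part of any of these cells in the fall of the globins was not tested.

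Between genotypes at PN56, where the globins differed, the endothelial sums were 752 to 1257 in WT and 1042 to 1107 in Klf4CN, with 1 of 12 markers called lower, Tie1 by -1.19 (adjusted p = 0.0398), 1 higher, Egfl7 by 0.97 (adjusted p = 0.0494), and a median of 0.02. Both calls were lost in most alternatives, 17 of 21 for Tie1, with leaving out any 1 of the 10 arrays among them, and 14 of 21 for Egfl7, which was 0.43 without PN56 WT replicate 2 (adjusted p = 0.230). Macrophage sums were 2169 to 2463 and 2161 to 3568, with 2 of 12 higher, Tyrobp by 2.43 (adjusted p = 0.000824) and Cd68 by 2.74 (adjusted p = 0.00283). Platelet sums were 981 to 1444 and 810 to 998, with 0 of 5 called. Other leukocyte sums were 708 to 1003 and 482 to 803, with 1 of 6 called lower, Mpo, the neutrophil myeloperoxidase, by -2.41 (adjusted p = 0.0166). This call was lost in 4 of 20 alternatives, among them without PN56 WT replicate 2 (adjusted p = 0.0608) or PN56 Klf4CN replicate 1 (0.0683). Retinal sums were 2582 to 2592 and 2341 to 2944, with 1 of 11 called higher, Fabp7, a fatty acid binding protein of neural progenitors, by 2.28 (adjusted p = 0.0173). It was lost in 5 of 21, among them without PN56 WT replicate 2 (adjusted p = 0.0829) or PN56 Klf4CN replicate 2 (0.135). Pigment cell sums were 9282 to 11216 in WT and 5672 to 5707 in Klf4CN, with 0 of 7 called. Lens marker sums were 933558 to 1058930 and 711197 to 726355, with 7 of 12 lens markers called lower, against 5.04% of all probe sets. Control probe sets moved in both directions. AFFX-CreX-3_at, a hybridisation spike, was at 72629 and 83845 in WT and 53238 and 51262 in Klf4CN, a difference of -0.58 (adjusted p = 0.0063). The other Cre probe sets, AFFX-CreX-5_at, AFFX-r2-P1-cre-3_at and AFFX-r2-P1-cre-5_at, were also called lower, at -0.60, -0.59 and -0.52. AFFX-b-ActinMur/M12481_3_at was at 79156 and 84167 in WT and 62118 and 62866 in Klf4CN, a difference of -0.39 (adjusted p = 0.0241). The other actin probe sets were at -0.12 and -0.24 and did not pass. A control probe set of 18S ribosomal RNA, AFFX-18SRNAMur/X00686_5_at, was higher in Klf4CN, at 527.5 and 2870 in WT and 5700 and 11005 in Klf4CN, a difference of 2.66 (adjusted p = 0.0136). At E16.5, where no member was called, it was at 1155 to 2413 in WT and 20897 to 22776 in Klf4CN, a difference of 3.60 that did not pass (adjusted p = 0.0760), and the genotypes did not overlap. The other 2 probe sets of 18S RNA, AFFX-18SRNAMur/X00686_3_at and AFFX-18SRNAMur/X00686_M_at, had overlapping genotypes at PN56 (0.53 and -0.02) and were higher on every Klf4CN array than on every WT array at E16.5 (1.10 and 1.30), none of these past the test. The part of these signals in the globin differences was not tested.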

How the data were processed

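RNA of 10 whole-lens samples was hybridised to Affymetrix whole-genome mouse arrays, per the labels' protocols. The deposited values were linear signal intensities, 1 per probe set and array, made by the authors with GCOS 1.4, per the submitters' processing notes; the mean after trimming 2% at each end was 500 on each array, and no other step was stated in the sources used. Genes were named through GEO's platform annotation. Signals were used as deposited, tested as log2(signal + 16) with limma 3.58.1 in R 4.3.3: 4 group means, eBayes with an intensity trend, two-sided, Benjamini-Hochberg over 27062 probe sets. P-values are from this fit, except where the sentence names another setting. The fit was also run on simulated data with independent normal noise and a large added shift. Such data hold no scaling offset, signal floor or likeness between arrays, so they do not check the p-values against these. With 2 or 3 arrays per group, the number of arrays limits precision. Preparations were independent, per the labels.

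The members and gene lists were chosen with earlier results of these data known. Named were all member probe sets, up to 3 genes of smallest p per list and comparison (by the brightest tested probe set), and the 5 probe sets most like the members. The fit did not pair samples by replicate number, though at E16.5 same-numbered arrays had correlated deviations (the closing section gives the check). Alternatives changed scaling, offset, filter, probe set choice, eBayes trend, array weights, arrays in the fit and the replicate block, and left out each array; those for list genes were run after seeing the data.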

Additional observations from a re-analysis of the deposited data

Results flagged for a closer look

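The genotype difference (Klf4CN minus WT) was not the same at the 2 ages by the test of that difference (limma, adjusted over 27062 probe sets) for 4 globin probe sets and 12 other genes of the lists; each value is the log2 difference at PN56 less that at E16.5, from 2 arrays per genotype at PN56 and 3 at E16.5. Among globins it was -0.94 for shared beta-globin (1417184_s_at, adjusted p = 0.0444), -1.96 for Hba-x (adjusted p = 0.0396), -1.25 for 1428361_x_at of alpha-globin (adjusted p = 0.00353) and -1.99 for 1452757_s_at of alpha-globin (adjusted p = 0.00149). In the haem synthesis list it was -1.28 for Alad (adjusted p = 0.00477). In the red cell membrane and surface list it was -0.65 for Slc2a1 (adjusted p = 0.0271), -1.77 for Ermap (adjusted p = 0.0315) and -1.05 for Aqp1 (adjusted p = 0.0382). In the list of erythroid receptors, iron uptake and metabolism it was 1.11 for Car2 (adjusted p = 0.00957) and -0.78 for Cat (adjusted p = 0.0483). It was 3.07 for Blvrb (adjusted p = 0.000947), and among macrophage markers 2.06 for Tyrobp (adjusted p = 0.0205) and 2.37 for Cd68 (adjusted p = 0.0442). Among pigment cell markers it was -3.19 for Tyrp1 (adjusted p = 0.0350) and -2.68 for Pmel (adjusted p = 0.0424), and among lens markers -0.59 for Bfsp1 (adjusted p = 0.0417). Of these, the calls of Cat, Cd68, Pmel, Bfsp1, Hba-x and shared beta-globin were lost in most alternatives. Those of Aqp1 and Ermap were lost in 10 of 20 each and that of Tyrp1 in 9 of 20. At E16.5 pigment cell sums were 2599 to 3673 in WT and 3526 to 9358 in Klf4CN (median log2 difference 1.85, 0 of 7 called). Retinal sums there were 1063 to 8937 and 5986 to 16104 (median 1.53, 0 of 11 called). The part of these signals in the differences between ages was not tested.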

How the results depend on the processing

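Counts of members called at E16.5 between genotypes were 0 in every alternative run. Counts took calls in either direction, and without PN56 Klf4CN replicate 1 the PN56 difference of Alas2 was 2.11, on the higher side. At PN56 the count of 5 was 3 with the brightest probe set per gene, where 8 were tested. It was 3 in a fit on the arrays compared only, and 5 without any 1 of the E16.5 arrays. By age it was 7 in WT and 8 in Klf4CN with the brightest probe set per gene, and 12 to 13 and 13 to 14 without 1 array. For the difference between ages the count of 4 was 1 with no intensity trend. It was 2 with median centring, with an offset of 64, with no filter, with the brightest probe set per gene and with array weights. Without PN56 Klf4CN replicate 1 the Alas2 value was 2.085, on the higher side. Leaving out any 1 of the E16.5 arrays gave a count of 2, without Hba-x and shared beta-globin. The cause of these shifts was not tested, apart from the fewer probe sets tested per gene; the fit on compared arrays only gives no such difference. Replicate numbers: same-numbered arrays had correlated deviations from group means (across 27062 probe sets) of 0.181, 0.147 and 0.09 at E16.5. There each array correlated best with its own number. At PN56 the value was 0.029. With 2 arrays per group every pair has this value with either sign, so pairing cannot be judged there. With the replicate block the counts were 0, 5, 13, 14 and 4, as without it. No called difference reversed. Uncalled differences near 0 did: with median centring at E16.5 1417714_x_at of Hba-a1 was -0.011 and Alas2 -0.019, and with an offset of 64 the difference between ages of 1427866_x_at of Hbb-b2 was -0.14. Ranges over arrays left out crossed 0 for these: at E16.5 they were -0.17 to 0.18 for Alas2 1451675_a_at, -0.37 to 0.33 for Hba-a1 1417714_x_at, -0.26 to 0.15 for Hba-x 1448716_at, -0.64 to 0.012 for Hbb-y 1436717_x_at, -0.17 to 0.08 for Slc4a1 1416464_at, -0.31 to 0.079 for Slc4a1 1434502_x_at; at PN56 they were -0.36 to 2.11 for Alas2 1451675_a_at, -0.49 to 1.24 for Hbb-bh1 1437810_a_at, -0.011 to 0.26 for Hbb-y 1436717_x_at, -0.39 to 1.38 for Hbb-y 1436823_x_at, -0.24 to 0.29 for Hbb-y 1450621_a_at; for the difference between ages they were -0.38 to 2.08 for Alas2 1451675_a_at, -1.46 to 0.28 for Hbb-b2 1427865_at, -0.23 to 0.34 for Hbb-b2 1427866_x_at, -0.094 to 1.67 for Hbb-y 1436823_x_at. Of 2165 repeats for called list genes 204 lost the call and 0 reversed.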

Other observations

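The tested genes whose pattern was most like that of the members were found by Pearson correlation with the mean log2 signal of the 14 tested member probe sets, among 23721 probe sets with 1 symbol. Over the 10 arrays, which mostly reflects the gap between ages, the 5 of highest correlation were Galnt2 (r = 0.9985), Slc46a3 (0.9978), Zfp365 (0.9973), Bach2 (0.9967) and Cmas (0.9966). Galnt2, an enzyme that starts O-linked glycan chains, had signals of 4353 to 5853 at E16.5 and 534 to 825.5 at PN56. With the group means taken off, so that only differences between arrays of a group count, they were Prrx1 (0.983), Mfap3l (0.9799), Actn3 (0.9743), Mxd1 (0.9723) and Fam210b (0.9668). Members that are near the floor at PN56 vary most on the log scale there, and the same arrays and scaling underlie both sides of each correlation.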
